A study of Homo sapiens with 20 samples.

Results

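The promoters of the genes for cytosolic ribosomal proteins were examined for acetylation of histone H3 at lysine 27 (H3K27ac) in HCT-116 cells, a human colorectal cancer line. Members were chosen by name: protein-coding GENCODE genes whose symbol is RPL or RPS followed by a digit, with RPLP0, RPLP1, RPLP2 and RPSA, and without the RPS6K kinases and the ribosomal-like paralogs whose symbols end in L or L1. This found 83 genes. Of these, 4 were set aside, namely RPS19BP1, which is not a ribosomal protein, and the readthrough genes RPL17-C18orf32, RPL36A-HNRNPH2 and RPS10-NUDT3. The remaining 79 members, 46 of the large subunit and 33 of the small, were 79 of 20033 protein-coding start sites. The rule for choosing them uses names alone and no measured value.

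The cytosolic ribosome is built from ribosomal RNA and a fixed set of proteins made in matched amounts, and the genes for these proteins lie scattered over the genome. They are housekeeping genes, among the most strongly transcribed in dividing cells. Their transcripts begin with a run of pyrimidines headed by a cytosine, the terminal oligopyrimidine (TOP) motif, through which the kinase mTOR controls their translation. H3K27ac is laid on nucleosomes that flank active start sites and enhancers, and the start site itself is kept free of nucleosomes. FBXW7 is the substrate-binding part of a ubiquitin ligase, HDAC4 is a class IIa histone deacetylase, and oxaliplatin is a platinum drug that damages DNA and is known to disturb ribosome assembly.

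Cells were wild type (WT) or FBXW7-/- (KO), both obtained from Ubigene. Whether the KO line is a single clone was not stated. They received a control esiRNA (esiCT) or an esiRNA pool against HDAC4 (esiHDAC4) for 48 h, and oxaliplatin (OXPT) at 50 µM during the last 24 h or no drug (UNT). The 8 combinations had 2 libraries each, replicates A and B, giving 16 libraries. The labels say that 3 experiments were combined, while the paper speaks of 2 biological replicates, named A and B. How the 3 experiments relate to the letters is not stated, so p-values measure only the spread between these libraries. Within each genotype, libraries of the same letter deviated together from their group means (r of 0.23 to 0.35 in WT and 0.26 to 0.42 in KO, 6 pairs of groups each), and between genotypes they did not (r of -0.04 to 0.10, 16 pairs). The 16 libraries thus fall into 4 sets, WT A, WT B, KO A and KO B, and a comparison of KO with WT rests on 2 sets of each genotype.

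Each library came as a list of peaks. A member was called present when a peak lay within 1 kb of its canonical start site, and the peak of highest summit fold stood for it. The summit fold is the fragment pileup at the peak's highest point, plus 1, over the local background, plus 1. The lists held 1752 to 27927 peaks, and the background that fold and p-value imply ran from 1.02 to 2.89 fragments, so the lowest fold that could be called at background ran from 2.84 to 3.96. KO esiHDAC4 UNT B stood apart with 1752 peaks, and the other 3 KO libraries of replicate B had 6084 to 8216. A member without a peak in such a short list was not detected, and its mark may still have been present. Of the fixed epithelial marker genes, 63.6% to 81.8% had a start-site peak in the A libraries, against 0% to 14.3% of fibroblast, 0% to 16.7% of blood and 0% of endothelial markers, so the markers matched the labelled epithelial tumour line.

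The start sites themselves are shown first, because the pyrimidine run is what most of these promoters have in common and what the choice by name did not use. Each line holds 30 bases of hg38 on the gene's own strand, written 5′ to 3′, with 15 bases before the annotated start base and 15 from that base on. Capitals mark the unbroken run of C and T that contains the start base, and a line without capitals starts at a purine. RPS19, RPL37A and RPL13 led the members in fold, detection or width. RPLP0 and RPLP1 form the stalk of the large subunit, RPL5 and RPL11 carry the ribosomal RNA-bound complex that binds MDM2, and RPS6 is the substrate of the RPS6K kinases. RPS14, RPS23, RPS7, RPL37 and RPL27 are among the members that differed between KO and WT in the A libraries. RPL36A was one of the least often detected, and RPL4, RPL32 and RPS4X, with RPL27, are exceptions without a run.
RPS19, chr19:41860240-41860269, plus strand: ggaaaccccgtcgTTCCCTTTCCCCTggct
RPL37A, chr2:216498829-216498858, plus strand: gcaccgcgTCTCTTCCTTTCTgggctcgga
RPL13, chr16:89560667-89560696, plus strand: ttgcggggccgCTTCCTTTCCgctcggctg
RPLP0, chr12:120201097-120201126, minus strand: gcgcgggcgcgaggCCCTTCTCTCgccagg
RPLP1, chr15:69452803-69452832, plus strand: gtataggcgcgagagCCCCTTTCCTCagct
RPL5, chr1:92832025-92832054, plus strand: cgcaagggctgtggCCCTTTTCCCaccccc
RPL11, chr1:23691791-23691820, plus strand: cggaagctccgCTTTCTCTTCCTgctctcc
RPS6, chr9:19380222-19380251, minus strand: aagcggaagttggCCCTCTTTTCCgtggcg
RPS14, chr5:150449725-150449754, minus strand: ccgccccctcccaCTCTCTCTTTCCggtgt
RPS23, chr5:82278340-82278369, minus strand: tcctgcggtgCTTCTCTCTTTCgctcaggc
RPS7, chr2:3575245-3575274, plus strand: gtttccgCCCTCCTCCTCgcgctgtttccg
RPL37, chr5:40835208-40835237, minus strand: tagcggaagtgCCTTCTCTTCCggtctttc
RPL36A, chrX:101390996-101391025, plus strand: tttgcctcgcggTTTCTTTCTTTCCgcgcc
RPL27, chr17:42998404-42998433, plus strand: ccggggtgaaaggttagcggaagtgtcctt
RPL4, chr15:66504841-66504870, minus strand: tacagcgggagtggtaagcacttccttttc
RPL32, chr3:12841551-12841580, minus strand: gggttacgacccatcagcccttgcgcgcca
RPS4X, chrX:72277234-72277263, minus strand: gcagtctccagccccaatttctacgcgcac

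The annotated first base was C in 63 of 79 members (79.7%), against 10.7% of all start sites. A first base C with at least 5 unbroken pyrimidines counted from it was found in 59 members (74.7%), against 4.59% of all start sites and 6.50% of the other start sites with a peak in at least 12 libraries. The median run around the start base was 11 bases in members and 0 over all start sites, and the longest run among members was 25 bases. Genes of the mitochondrial ribosome, which make a separate ribosome in the organelle, had the C-headed run in 5 of 78 cases (6.41%). Of 21 other translation genes, a list that includes elongation factors and was drawn up around TOP transcripts, 18 had it (85.7%).

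Short motifs were searched on both strands from 250 bases before to 50 bases after each start site. The ETS core CCGGAA was present at 44 members (55.7%, against 22.8% of all start sites). AAGATGG, the core bound by YY1, was present at 14 (17.7% against 6.41%). The SP/KLF core GGGCGG was present at 46 (58.2% against 61.3%), the E-box CACGTG bound by MYC at 5 (6.33% against 8.76%) and TATAAA at 6 (7.59% against 9.71%). Mitochondrial ribosomal protein genes had the ETS core in 60.3% and the YY1 core in 32.1%, the other translation genes in 57.1% and 38.1%, and other start sites with a peak in at least 12 libraries in 36.7% and 9.53%. These are matches of letters in the genome and say nothing of binding. The median GC content of this window was 59.3% in members and 63.7% over all start sites. Members with the C-headed run had a peak in a median of 13 libraries (n = 59) and the others in 12 (n = 20).

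Nearly every ribosomal protein promoter carried an H3K27ac peak in the libraries with longer peak lists. In the 8 replicate A libraries between 66 and 77 of 79 members were called, or 92.7% of all member and library combinations, against 39.3% for all start sites. Untreated WT esiCT cells had 77 members called in A and 77 in B, where 53.3% and 44.8% of all start sites were called. After OXPT the same cells had 75 in A and 53 in B. WT esiHDAC4 cells had 73 in A and 77 in B without the drug and 73 and 71 with it. The WT libraries therefore ranged from 53 to 77 members, with WT esiCT OXPT B the lowest.

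KO cells had 66 to 74 members called in A and far fewer in B. KO esiCT UNT had 66 members in A and 30 in B, and KO esiCT OXPT had 74 and 54. KO esiHDAC4 UNT had 74 in A and 3 in B, and KO esiHDAC4 OXPT had 74 and 40. In the A libraries 94.3% of members were called in WT and 91.1% in KO, and in the B libraries 88.0% and 40.2%. The share of all start sites moved with them, at 43.0% and 35.6% in A and 33.1% and 7.47% in B. Genotype and the length of the peak list cannot be told apart in the B libraries.

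**Figure D1:**
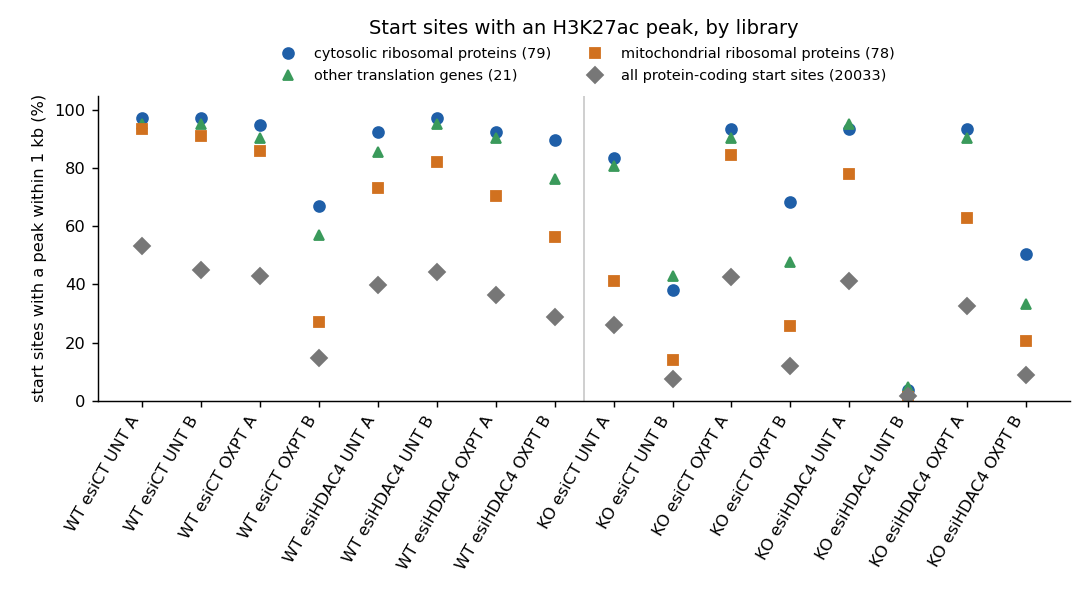
Percent of start sites with an H3K27ac peak within 1 kb (vertical axis) in each of the 16 libraries (horizontal axis) for cytosolic ribosomal proteins, other translation genes, mitochondrial ribosomal proteins and all protein-coding genes. Members lie at 83.5% to 97.5% in the A libraries, above all start sites in each of the 16 libraries, and at 3 of 79 in KO esiHDAC4 UNT B.

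Over the 16 libraries 78.4% of member and library combinations were called, against 29.8% for all start sites. The gap stayed when peaks had to lie within 500 bp (73.1% against 26.0%), when the summit had to lie within 1 kb (75.2% against 27.7%), when a −log10 q of at least 10 was required (17.8% against 3.35%) and when every list was cut to its 1752 strongest peaks (19.8% against 3.52%). The last of these gives all libraries the same list length.

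Single members were called in 6 to 16 libraries, apart from RPS4Y1 and RPS4Y2 on the Y chromosome, which were called in none. The median was 13 libraries for members and 3 for other start sites. RPL37A, a large-subunit protein, was the one member called in all 16, and 13 members were called in 15. In all, 64 members were called in at least 12 libraries, where 2572 of all start sites were, and 58 were called in all 8 A libraries, where 3029 of all start sites were. At the other end stood RPS4X and RPL36A with 6 libraries each, RPL39 with 7, RPL32 with 9, RPLP2, RPL10 and RPS20 with 10, and RPS15A, RPL27, RPL23, RPSA, RPS28 and RPS29 with 11. In lists of 1752 peaks RPL13 was still present in 13 libraries, RPS19 and RPL37A in 10 each, and RPL27A in 9.

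On the X chromosome lie 4 members, RPS4X, RPL36A, RPL39 and RPL10, and these were among the 7 called least often. Between 25.0% and 100% of them were called in an A library, against 89.0% to 100% of the autosomal members. The same held beyond the ribosome, as 1.99% to 23.3% of other X-linked start sites and 27% to 54.6% of other autosomal ones were called. RPL36A had a fold of 2.72 and 5.24 in WT esiCT UNT A and B, 3.58 in WT esiHDAC4 UNT B, 4.52 in WT esiHDAC4 OXPT A, 4.80 in KO esiCT UNT B and 3.99 in KO esiHDAC4 UNT A, and no peak elsewhere. RPS4X, whose product is interchangeable with that of RPS4Y1, had 4.75 and 3.11 in WT esiCT UNT A and B, 3.66 in WT esiHDAC4 UNT B, 4.06 in WT esiHDAC4 OXPT A, 5.10 in KO esiCT OXPT A and 5.44 in KO esiHDAC4 UNT B. Calls of both members were spread over WT and KO libraries.

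Large-subunit genes were called in 87.0% to 100% of cases in the A libraries and small-subunit genes in 78.8% to 93.9%, the latter holding the 2 Y-linked genes without a peak. Other translation genes gave 81.0% to 95.2%, with EEF1A1, an elongation factor, called in 15 libraries, FAU, which encodes RPS30 fused to a ubiquitin-like protein, in 14, EEF2 in 13 and RACK1 in 12. Ribosome biogenesis genes gave 52.2% to 95.7% and mitochondrial ribosomal protein genes 41.0% to 93.6%. The 8 ribosomal-like paralogs left out by the rule were divided, with RPL22L1 and RPL36AL called in 15 libraries, RPS27L in 14, RPL7L1 in 13 and RPL26L1 in 5, and RPL39L, RPL3L and RPL10L in none.

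Where a peak was called, that of a member was somewhat higher and wider than the typical start-site peak. Its median summit fold ranged over the A libraries from 4.43 to 6.37, against 3.95 to 5.28 over all start sites called, and its median width from 748 to 1423 bp, against 529 to 1014 bp. With uncalled start sites ranked lowest, the median member stood at the percentile 83.1 to 91.6 of all start sites in fold. The other translation genes had much the same values in the A libraries, so these traits were not particular to the members. Their median fold was 4.05 to 6.16, their median width 708 to 1742 bp and their median percentile 78.8 to 91.2. Folds rested on few fragments, the median summit pileup of members being 15.0 to 25.0 in the A libraries, so values of single promoters carry a large counting error.

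Peaks lay downstream of the start. The median summit was 304 to 386 bp past the start site in the A libraries, and 67.6% to 80.5% of members had it downstream, against 66.0% to 68.8% of all start sites called. Of the other translation genes called, 72.2% to 85% had it downstream. At the start base itself 14.9% of member peaks reached over the position (median of the A libraries), against 18% for other start sites. At 200 bp downstream it was 62.8% against 49.6%, at 400 bp 74.1% against 57.8% and at 800 bp 59.1% against 37.2%. Upstream the 2 curves were closer at 400 bp (26.8% against 26.7%) and 600 bp (27.7% against 25.3%), and members were again above at 900 bp (22.1% against 16.7%). Between 25 and 41 members had more than 1 peak in the window in an A library.

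**Figure D2:**
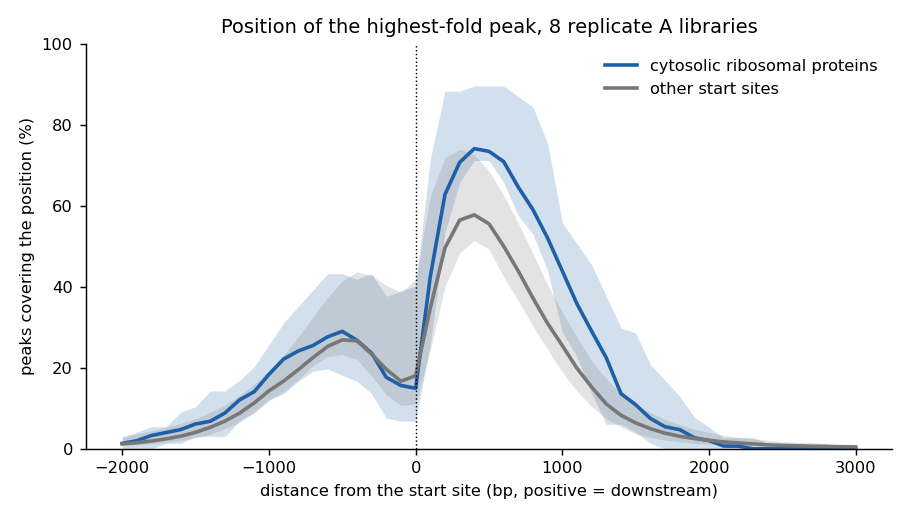
Percent of highest-fold peaks that cover a position (vertical axis) by distance from the start site in bp (horizontal axis, positive downstream), for members and other start sites with a peak. Lines are medians and bands the range over the 8 replicate A libraries; member peaks cover the position 400 bp downstream in 74.1% of cases and the start base in 14.9%.

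A divergent neighbour was uncommon. A start site of another protein-coding gene lay within 1 kb of 14 members, on the opposite strand in 13 of these, such as MED22 at 87 bp from RPL7A, LRSAM1 at 104 bp from RPL12 and TRIM66 at 127 bp from RPL27A. A peak between such a pair cannot be assigned to one gene. No member lay in a super-enhancer, a cluster of strong enhancers as listed by the authors, in any of the 16 libraries. Of all 20033 start sites 1 to 166 per library did, and at so small a share the absence does not set the members apart.

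To compare members, each log2 fold was set against the median of other start sites in the same library. In the A libraries the reference was those called in all 8. On this scale the 58 members called in all 8 A libraries had a median of 0.05, with 39 of 58 above 0, as were 1399 of 2971 other start sites. The SD between the 58 means was 0.16, and a member's mean had a median SE of 0.09 over the 8 libraries, which are not independent of each other. In the order of the means, 1 of 57 neighbouring pairs lay further apart than their combined SE. Their median relative log2 width was 0.06, with 32 of 58 wider than the reference, as were 1361 of 2971.

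**Figure D3:**
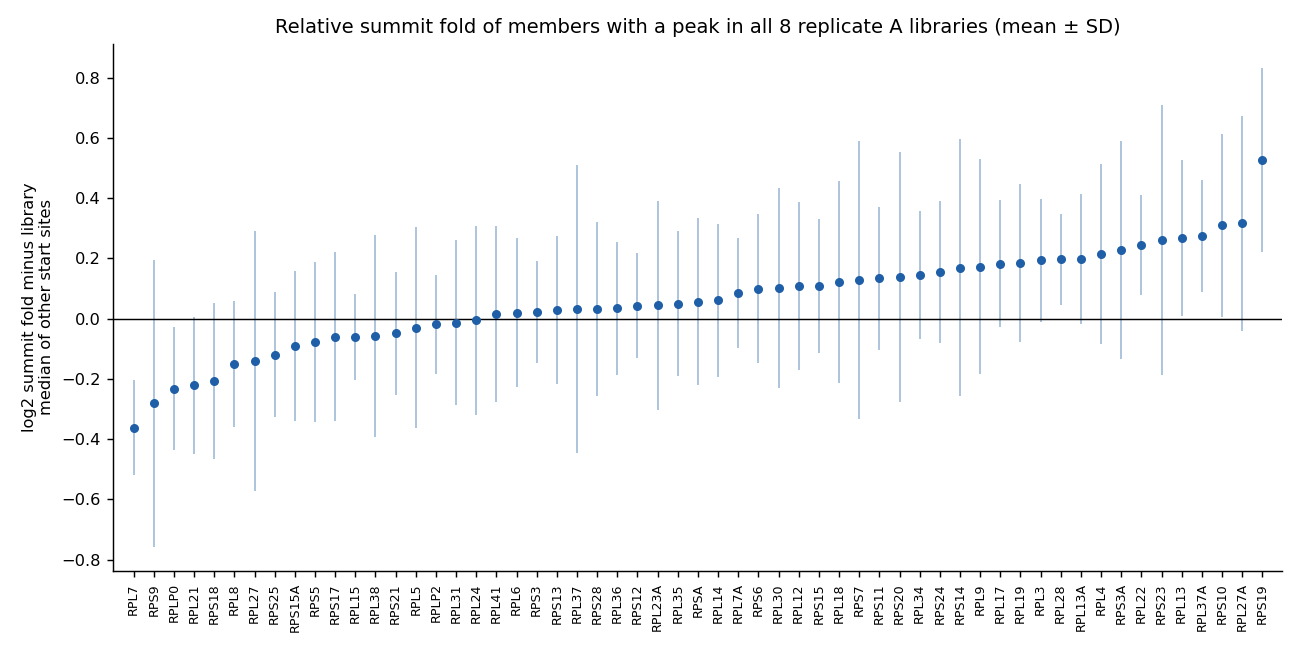
Relative log2 summit fold (vertical axis, member minus the library's median over other start sites) of 57 of the 58 members called in all 8 replicate A libraries (horizontal axis, in order of the mean). Points are means and bars the SD over the 8 libraries; RPS19 is highest and RPL7 lowest, and most bars overlap 0.

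Over all libraries with a peak, and with start sites called in all 16 as the reference, RPS19 was highest, at 0.18 ± 0.30 (SD, n = 14). RPS19, a small-subunit protein mutated in Diamond-Blackfan anaemia, had folds of 9.84, 9.40, 7.86 and 7.35 in the WT A libraries (esiCT UNT, esiCT OXPT, esiHDAC4 UNT and esiHDAC4 OXPT, the order used throughout) and 6.40, 5.17, 6.23 and 4.68 in WT B. In KO it had 4.83, 6.71, 5.65 and 7.13 in A, and in B 5.69 in esiCT OXPT and 4.78 in esiHDAC4 OXPT. These folds were not centred. Among all start sites called in every A library, the median fold was 6.42 in WT esiCT UNT A and 4.28 in KO esiHDAC4 OXPT A. RPS19 was not among the members called for KO against WT in the A libraries. RPS3A, RPL37A, RPL13 and RPL34 followed with 0.09, 0.08, 0.05 and 0.04.

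RPL37A, with a value in each library, had folds of 7.12, 4.67, 5.80 and 5.28 in WT A and 7.17, 4.46, 7.84 and 4.94 in WT B. In KO they were 6.06, 7.17, 6.58 and 5.89 in A and 5.26, 8.23, 5.04 and 4.16 in B. WT and KO overlapped over nearly the whole range. These folds were not centred. Each OXPT library lay below its UNT partner within WT and within KO esiHDAC4, and above it within KO esiCT. On centred folds the OXPT difference of RPL37A, averaged over genotype and silencing, was -0.04 (limma adjusted p = 0.963).

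The lowest members were RPL36A (-0.57, 6 libraries), RPS27 (-0.51, 12), RPS4X (-0.49, 6), RPL7 (-0.49, 14) and RPL39 (-0.47, 7). By width RPL13 led, with a mean relative log2 width of 0.32 and widths of 681 to 3855 bp (median 1709), followed by RPL27A at 0.02, RPS19 at -0.01, RPL13A at -0.02 and RPL4 at -0.12. The median summit of RPL13 peaks lay at -357 bp, on the upstream side. The narrowest were RPL10 (-1.89), RPS4X (-1.87), RPL39 (-1.58), RPL36A (-1.56) and RPS20 (-1.34), of which the first 4 are the X-linked members.

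Members with roles outside or at the edge of the ribosome lay within the range of the rest. The stalk proteins RPLP0, RPLP1 and RPLP2, which recruit translation factors, were called in 14, 12 and 10 libraries with median folds of 4.61, 4.75 and 4.51. RPL5, RPL11 and RPL23, which bind MDM2 when ribosome assembly is disturbed, were called in 14, 13 and 11 libraries with medians of 4.75, 5.16 and 4.40. RPS6, RPS3, RPS14 and RPSA, the last known also as the laminin receptor, were called in 13, 12, 13 and 11 libraries with medians of 4.82, 4.95, 5.86 and 4.35. RPS27A, made as a fusion with ubiquitin, RPL3, RPL13A and RPL22 were called in 13, 14, 15 and 13 libraries with medians of 5.41, 5.90, 5.26 and 6.0.

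The effect of losing FBXW7 was tested per promoter with limma on log2 fold, centred on the median of other start sites, with Benjamini-Hochberg adjustment over all start sites tested. Start sites called in all 16 libraries numbered 57, with RPL37A the one member, since KO esiHDAC4 UNT B had so few peaks. There KO exceeded WT by 0.14 in RPL37A (adjusted p = 0.499), and 0 of 57 start sites (0%) passed 0.05, with 9 at an unadjusted p below 0.05. Wider sets were therefore used, the 2572 start sites called in at least 12 libraries, where missing values were dropped, and the 3029 called in all 8 A libraries, fitted on those alone. The latter set was chosen after the data were seen.

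With at least 12 libraries, 32 of 2572 start sites differed (1.24%), 18 higher and 14 lower in KO (9 and 33 without centring), and 0 of 64 members did. The median difference, KO minus WT, was -0.02 in members and 0.01 over all, and members ranged from -0.35 to 0.49. RPL5 had the smallest adjusted p by limma (0.0616), with a difference of 0.49 ± 0.14 (SE). Its folds were 4.67, 4.74, 5.30 and 3.04 in WT A and 4.24, 3.78 and 3.40 in WT B, without a peak in esiCT OXPT. In KO they were 4.75, 6.25, 5.89 and 5.10 in A and 5.10, 4.66 and 5.05 in B, without a peak in esiHDAC4 UNT. The groups overlapped, and every KO value lay above 4.24, the middle WT value. RPL5 passed with the added 1 of the fold removed (limma adjusted p = 0.0331), without WT esiHDAC4 UNT A (0.0343) and without KO esiHDAC4 UNT B (0.0330). Of the 16 fits with 1 library left out, RPL5 passed in these 2 alone, and its limma adjusted p reached 0.136. It also passed with the letter as a block within each genotype, at 0.51 ± 0.14 (limma adjusted p = 0.0376), where 30 of 2235 start sites (1.34%) and 1 of 62 members were called. The p-values of that fit measure only the spread within each set of genotype and letter, and not the spread between sets of the same genotype.

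In the A libraries alone 141 of 3029 start sites differed (4.66%), 74 higher and 67 lower in KO, and 6 of 58 members did, 4 up and 2 down. Here all WT libraries belong to 1 set and all KO libraries to another, so that genotype and set cannot be told apart. The median of the 58 was 0.02, and 29 of them were positive. RPS14, RPS23, RPS7 and RPS20 are small-subunit proteins, of which RPS23 lies at the decoding centre and RPS7 takes part in early subunit assembly, and RPL27 and RPL37 belong to the large subunit.

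RPL27 rose by 0.73 ± 0.17 (log2, SE, limma adjusted p = 0.0124). Its folds in A were 5.29, 2.86, 3.40 and 3.49 in WT and 5.11, 6.73, 5.03 and 5.51 in KO, with WT esiCT UNT the one WT library inside the KO range. In B it had 5.04, 4.41 and 3.80 in WT and no peak in any KO library.

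RPS14, whose loss underlies the anaemia of the 5q- syndrome, rose by 0.69 (limma adjusted p = 0.0159), from 6.98, 3.92, 4.14 and 3.95 in WT A to 7.1, 9.09, 5.86 and 5.67 in KO A. Its B values went the other way, with 7.20, 5.12, 7.85 and 6.36 in WT and 2.79 in the one KO library with a peak, esiCT OXPT. RPS23 rose by 0.68 (adjusted p = 0.0169), from 5.61, 4.87, 6.68 and 3.23 to 7.22, 8.76, 7.18 and 5.99 in A. In B it had 5.98, 4.69, 6.08 and 5.95 in WT and 5.16 in KO esiCT OXPT. RPS7 rose by 0.62 (adjusted p = 0.0356), from 5.54, 3.90, 4.25 and 4.82 to 5.84, 7.88, 9.64 and 3.91 in A, where the KO value under esiHDAC4 and OXPT lay below 3 of the 4 WT values. In B it had 4.15, 5.02 and 5.89 in WT, without a peak in esiCT OXPT, and 3.49 in KO esiCT OXPT. The B values of these members did not repeat the higher level in KO.

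RPS20 and RPL37 were lower. RPS20 fell by 0.67 (limma adjusted p = 0.0159), from 7.96, 7.64, 6.58 and 6.79 in WT A to 3.79, 4.77, 3.51 and 4.65 in KO A. In B it had 3.46 in WT esiCT UNT, just below the KO A range, and 4.80 in WT esiHDAC4 UNT, just above it. It had no peak in KO B. RPL37 fell by 0.59 (adjusted p = 0.0432), from 7.77, 5.83, 6.81 and 5.86 to 6.42, 4.63, 3.48 and 2.4 in A. Its B values were 5.73, 3.66, 3.96 and 3.98 in WT and 4.09, 4.99 and 4.26 in KO, which overlap.

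**Figure D4:**
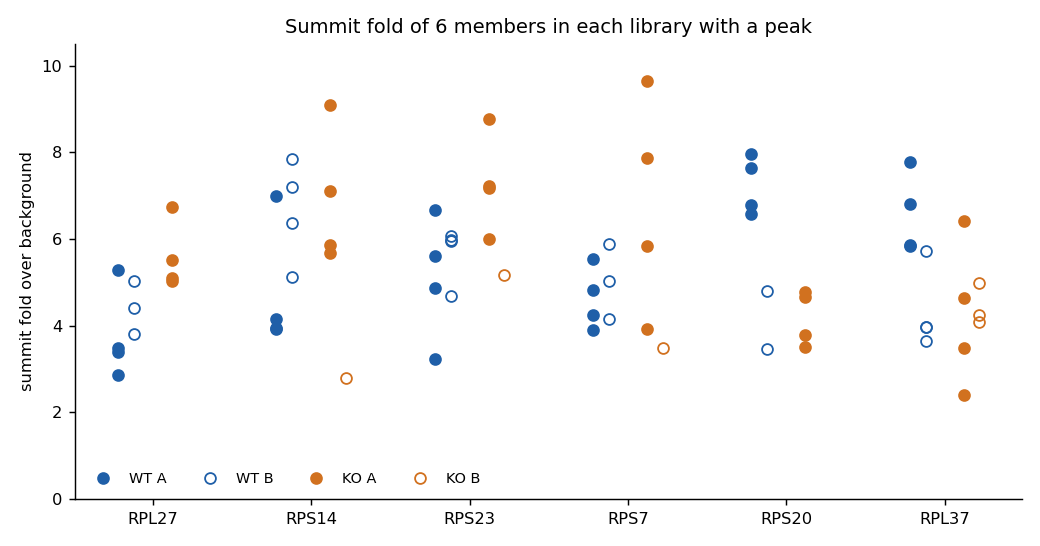
Summit fold over background (vertical axis) of the 6 members that differed between KO and WT in the replicate A libraries (horizontal axis), with 1 point per library that had a peak. Filled points are A and open points B. RPS20 lies at 6.58 to 7.96 in WT A and 3.51 to 4.77 in KO A.

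These calls were not stable. Leaving out 1 A library at a time gave 0 to 5 members called, 0 without KO esiCT OXPT A and 1 without WT esiCT OXPT A. RPL27 and RPS14 were called in 6 of these 8 fits, RPS23 and RPS20 in 4, RPL37 in 2 and RPS7 in 1. Without centring, which moved the median of all start sites to -0.12, 99 start sites (10 higher and 89 lower) and 2 members (RPL37 and RPS20, both lower) were called. In the fit with at least 12 libraries RPS14 stood at 0.17 (adjusted p = 0.729), RPS23 at 0.46 (0.143), RPS7 at 0.40 (0.258) and RPL37 at -0.28 (0.311), while RPL27 and RPS20 had too few libraries to enter.

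The response to OXPT was not detectable at single members. With at least 12 libraries limma called 0 of 2572 start sites (0%), 179 at an unadjusted p below 0.05, and 0 of 64 members, 5 of them unadjusted. The median difference, OXPT minus UNT, was 0.08 in members and 0.04 over all start sites, and 47 of 64 members were positive. Without centring the signs turned, with medians of -0.13 in members and -0.17 over all, 13 of 64 members being positive. RPL26, a large-subunit protein, had the smallest adjusted p (0.320), at 0.42 ± 0.14. With the letter as a block within each genotype 4 of 2235 start sites (0.179%) and 0 of 62 members were called. The A libraries alone gave 0 of 3029, 170 unadjusted, with 0 of 58 members and 2 unadjusted.

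In counts and uncentred folds the drug went opposite ways in the 2 genotypes under esiCT. Members with a peak went from 77 to 75 in WT A and from 77 to 53 in WT B, and from 66 to 74 in KO A and 30 to 54 in KO B. Their median fold went from 6.37 to 4.83 and from 5.52 to 4.43 in WT, and from 4.75 to 5.57 and 4.32 to 4.67 in KO. All start sites moved too, from 10673 to 8596 and 8978 to 2916 called in WT and from 5218 to 8519 and 1511 to 2379 in KO, and their median fold fell from 5.28 to 4.41 and 4.46 to 4.16 in WT. In KO the median over all start sites was 4.51 and 4.50 in A and 4.43 and 4.53 in B, over different start sites without and with the drug. Among start sites called in every A library, the KO A median fold went from 4.73 to 5.11. For the members among them it went from 4.78 to 5.73. Median member width went from 1423 to 926 bp and from 1199 to 658 bp in WT and from 748 to 1220 bp in KO A, but from 470 to 456 bp in KO B. The medians with and without the drug cover different members, such as 30 and 54 in KO B. Under esiHDAC4 the median member fold was lower with OXPT in WT A, WT B and KO A, and in KO B the untreated value (5.44, against 4.65) rested on 3 members.

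**Figure D5:**
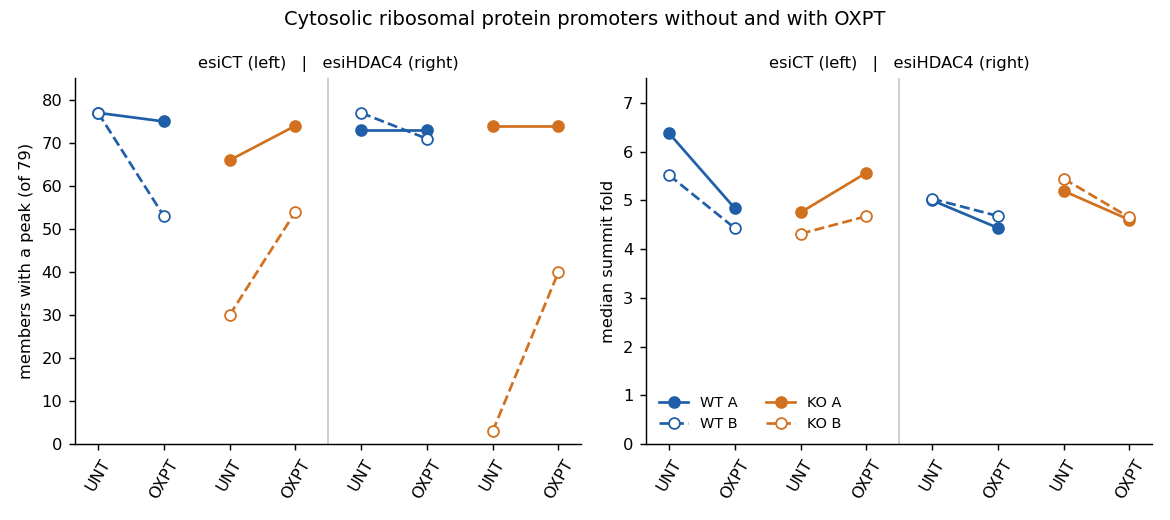
Members with a peak, of 79 (left panel), and their median summit fold (right panel) without and with OXPT, under esiCT and esiHDAC4, with 1 line per genotype and replicate letter. Under esiCT both WT lines go down and both KO lines go up, with 77 to 53 members in WT B and 30 to 54 in KO B.

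The difference of the OXPT responses, KO minus WT in esiCT, was tested per promoter on centred folds in a fit with group and letter terms. It called 0 of 2368 start sites (0%) and 0 of 60 members, 1 at an unadjusted p below 0.05, with a median of 0.03 in members. RPL9 was highest at 0.94 (limma adjusted p = 0.943). Among the 57 start sites called in all libraries RPL37A had 0.52 (adjusted p = 0.570). Without centring it had 1.09 and was called with 12 others of the 57, whose median was then 0.50, so that the shift was shared by the start sites tested.

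Silencing of HDAC4 gave no call at members either. With at least 12 libraries limma called 0 of 2572 start sites (0%), 107 at an unadjusted p below 0.05, and 0 of 64 members, 3 of them unadjusted. RPL41, which encodes the shortest ribosomal protein, had the smallest adjusted p (0.999), at 0.37. The A libraries alone gave 0 of 3029, 140 unadjusted, and 0 of 58 members, 4 unadjusted. For esiHDAC4 against esiCT within KO OXPT, the comparison closest to the study's own, 0 of 2368 start sites (0%) and 0 of 60 members were called, 1 member at an unadjusted p below 0.05, and the median was 0.04.

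Peak width gave 2 of 2572 start sites for KO against WT (0.0778%), 0 for OXPT and 0 for esiHDAC4 (0% each) with at least 12 libraries, and 0 of 64 members in each. RPS12 came closest for KO against WT, at 1.27 ± 0.37 (log2, SE, limma adjusted p = 0.192), and RPS19 for OXPT, at 1.05 (adjusted p = 0.455). The 57 start sites called in all libraries gave 1 for KO against WT (1.75%), and the A libraries alone 2 of 3029 (0.066%), neither a member.

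Presence or absence of a peak was tested with an exact conditional test within replicate letters, for start sites called in 3 to 13 libraries. None of the 9587 start sites tested (0%), nor any of the 44 members among them, passed in the 3 comparisons. At an unadjusted p below 0.05 stood 1351 start sites for KO against WT, 59 for OXPT and 12 for esiHDAC4, with 3, 0 and 0 members. The 3 members were RPS15, RPS9 and RPL39, all called less often in KO. RPS15 and RPS9 were called in all 8 WT libraries and in the 4 KO libraries of replicate A and in no KO library of replicate B, where 1.58% to 11.9% of all start sites were called. The exact p was 0.0286 for each of these and 0.0306 for RPL39, with an adjusted p of 0.246.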

How the data were processed

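Peak lists of 16 H3K27ac ChIP-seq libraries were analysed, and 4 input libraries were not used. Per the submitters' processing notes, the authors used Trimmomatic 0.39 for trimming, Bowtie2 2.4.4 for alignment to hg38, removed duplicates with SAMtools 1.18 and called peaks per library with MACS2 2.2.7.1, and super-enhancers were listed with ROSE. The deposited lists give the summit fold as a ratio of pileup to background, p-value and q-value as −log10, and an integer score made from q. The deposited files hold no read counts, so no count model was fitted and the background was solved from fold and p.

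Start sites were canonical GENCODE 44 transcripts. The peak of highest fold within 1 kb represented a start site. Log2 fold and width were centred on the library's median over non-members and fitted with limma 3.58.1 in R 4.3.3, with terms for group and replicate letter, as the study's model used replicate, or for genotype, treatment, silencing and letter in the wider fits, with Benjamini-Hochberg adjustment over all start sites tested at a threshold of 0.05. For presence, a two-sided exact conditional test kept the replicate letters as strata. Tables were built with Python 3.11.15, numpy 2.4.6, pandas 2.3.3 and scipy 1.17.1, and figures with matplotlib 3.10.9. The scripts were tested on simulated data. Sequences came from the hg38 genome.

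Members, lists and tests were chosen with earlier results of these data known. The text names members called in a fold contrast (at most 10 by p), the 5 highest and 5 lowest by relative fold, the 5 widest and narrowest, those called in the fewest libraries, and a set fixed by role. Members outside this rule were named for having the smallest p of a contrast or for an exceptional sequence or neighbour, chosen after their values were seen. Deviations of same-letter libraries from their group means correlated above 0.1 in all 12 pairs of groups within a genotype and in 0 of 16 between genotypes, so the letter pairs libraries within a genotype. This comes from the data, not from the labels. A fit with the letter as a block within each genotype was added after the data were seen. No 2 libraries were identical. Alternatives covered scaling, the replicate letter, start sites tested, the window, the peak chosen, the added 1 and each library left out. A few genes of the lists are counted in the totals and are not reported here by name.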

Additional observations from a re-analysis of the deposited data

Results flagged for a closer look

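The number of members called and their median fold went opposite ways with OXPT under esiCT in the 2 genotypes, in both replicate letters. The number of members with a peak, OXPT minus UNT, was -2 in WT A and -24 in WT B, and 8 in KO A and 24 in KO B. The median summit fold of the members with a peak differed by -1.54 in WT A and -1.09 in WT B, and by 0.81 in KO A and 0.36 in KO B. The median width did not, since it was lower with OXPT in KO B too (470 and 456 bp). The medians cover different members without and with the drug, 30 and 54 in KO B. With 2 libraries per group, the difference between genotypes in these summaries was not tested. The number of all start sites with a peak moved in the same directions, as given in the report. Among all start sites called in every A library, the median fold in KO A also went up, from 4.73 to 5.11. The part of library depth in these values was not tested.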

How the results depend on the processing

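Of 370 settings tried over the tests of members, 353 gave the same number of members called as the fit to start sites called in all 16 libraries and 17 did not. That fit held 57 start sites and 1 member, RPL37A, so agreement with its count says little about the other members. For fold in KO against WT that fit called 0 members, as did the wider fit. The fit with at least 12 libraries called 1 without the added 1. The A libraries alone called 6, 2 without centring and 7 without the added 1 (RPL27A joined). Leaving out 1 library at a time gave 0 to 5 members over all these fits, and in the A libraries alone 4 without WT esiCT UNT, KO esiCT UNT or KO esiHDAC4 OXPT, 3 without WT esiHDAC4 OXPT or KO esiHDAC4 UNT, 5 without WT esiHDAC4 UNT, 1 without WT esiCT OXPT and 0 without KO esiCT OXPT. In the fit with at least 12 libraries RPL5 was the member called without WT esiHDAC4 UNT A or KO esiHDAC4 UNT B, and RPS14 without KO esiCT OXPT B. The OXPT response, KO minus WT, called 1 member without centring. Width for esiHDAC4 gave 0 to 1 members when 1 library was left out, RPL37A being called without WT esiHDAC4 OXPT A. The cause of these changes was not tested. In the remaining settings, presence included and the block within each genotype (given next) apart, the number of members called did not move. Over all start sites the wider fit for KO against WT called 32, 42 without centring, and 48 without the added 1.

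The replicate letter served as 1 block over both genotypes in the fits, while the data pair libraries by letter within each genotype. With the replicate block within each genotype, the fit with at least 12 libraries called 1 member (RPL5) for fold in KO against WT and 0 in each other test. The p-values with this block leave out the spread between sets of the same genotype. Start sites called went from 0 to 4 for OXPT fold with at least 12 libraries, and among the 57 from 0 to 3 for fold and from 1 to 4 for width in KO against WT. The block within each genotype changed no other call of a member. With no replicate block 0 members were called in each test, and the fit with at least 12 libraries called 12 start sites instead of 32 for KO against WT, and for width 7 instead of 2. RPL5 then had an adjusted p of 0.128.

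At a −log10 q of at least 10 fewer than 10 start sites were left in all libraries, so fold and width were not fitted. The additive fit to at least 12 libraries cannot hold the OXPT response by genotype or the comparison within KO OXPT, and group and letter terms were used in its place, chosen after the data were seen, as were all fits to the A libraries alone. The short peak lists of the KO libraries of replicate B limit the result most, since absence of a peak there is uninformative. Whether read depth or enrichment made these lists short was not tested.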
